A study of Mus musculus with 18 samples.

Results

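The genes of 9 complement proteins were followed through the course of colitis in the mouse distal colon: C3, C2, Cfb, C4b, Cfi, Serping1, C3ar1, C5ar1 and Cd55. They were taken by symbol as a short list of components, regulators and receptors. That rule uses no measured value, but earlier results of these data were known when the list was chosen. Of the 9, 8 had a row in the deposited gene tables of 16321 genes, and all 8 passed the filter on low counts that left 16300 genes for testing. Cfi had no row there and is described from its transcripts. The samples were biopsies of the distal colon of 18 mice of the BALB/c strain, 3 in each of 6 groups, each mouse sampled at a single age. The wild type (BALB/c WT) was sampled at week 6, and mice lacking interleukin 10, a cytokine that restrains intestinal inflammation (BALB/c Il10KO), at weeks 6, 8, 10, 12 and 14. Such mice develop spontaneous colitis. There were no wild-type mice after week 6, so colitis and age cannot be told apart in the later groups. All 3 wild types came from cage G, where no knockout was housed, so cage and genotype cannot be told apart. The knocked-out allele and the sex of the mice are not given in the sources used here.

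Complement is a cascade of plasma and tissue proteins that marks microbes for uptake, draws in leukocytes and can lyse cells. The classical and lectin pathways cleave C4 and C2 into a C3 convertase, and the alternative pathway builds another from C3b and factor B. C3 cleavage by either enzyme yields C3b, which coats surfaces, and the peptide C3a; C5 cleavage yields C5a. C1 inhibitor, factor I and CD55 are among the proteins that hold the cascade in check, and C3a and C5a act through receptors on myeloid and other cells. Liver is the main source of the plasma proteins, but epithelial cells, fibroblasts and macrophages of the gut also make some of them.

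Library depth, as the total estimated count, ran from 26495521 to 35497101. Il10 had 0 to 3 estimated counts in the wild-type libraries and 0 in all 15 knockout libraries, a level at which single libraries cannot show a difference. Replicates 2 and 3 of week 14 stood apart: their RNA integrity numbers (RIN) were 6.5 and 5.8, against 8.4 to 9.3 elsewhere, and their normalisation factors 0.581 and 0.680, against 0.875 to 1.19. S100a8 and S100a9, abundant neutrophil transcripts, together took 0.876% and 0.666% of their counts and 0.422% of those of week 10 replicate 1, against at most 0.0167% elsewhere. Epithelial markers were abundant in every library, at a summed 13400 to 24400 CPM (counts scaled to library size), as the colon label implies. In bulk tissue, fewer cells of a type and less RNA per cell cannot be told apart.

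The C2, Cfb and C4b genes lie on the reverse strand of chromosome 17 in the major histocompatibility complex. In the GENCODE annotation of GRCm38, Cfb (ENSMUSG00000090231.10) spans chr17:34856374-34862518 and C2 (ENSMUSG00000024371.14) chr17:34862604-34898265, with 85 bases between them. C4b (ENSMUSG00000073418.4, chr17:34728380-34743882) lies 112491 bases from Cfb. Its near-identical copy C4a had no row in the gene tables and no matched transcript in the transcript tables. C4b counts may therefore include reads of that copy and are uncertain. C3 (ENSMUSG00000024164.15) spans chr17:57203970-57228136. Outside chromosome 17 are Serping1 (ENSMUSG00000023224.12, chr2:84765387-84775444), Cfi (ENSMUSG00000058952.12, chr3:129835884-129875332), C3ar1 (ENSMUSG00000040552.8, chr6:122847138-122856161), C5ar1 (ENSMUSG00000049130.6, chr7:16246743-16259540) and Cd55 (ENSMUSG00000026399.12, chr1:130439027-130462744).

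RefSeq promoter sequences (GRCm38.p6) were found for C3, C3ar1, C5ar1 and Cd55, that is 4 of the 9 genes. They were searched on both strands over 300 bases, 250 before and 50 after the start, for 4 motifs. In GENCODE a transcript begins at the start used for C3, C5ar1 and Cd55, but none does for C3ar1. The motifs were kappa B (GGGA and TTCC with any 2 bases between), the interferon-stimulated response element (2 copies of GAAA with any 2 bases between), the GAS element (TTCNNNGAA) and C/EBP (TTGCNNAA); matches of different motifs may overlap. The only match was a C/EBP motif in C3, beginning 45 bases before the start. Of the 32851 promoters in the table, 10.8% held that motif, and 1.47%, 3.44% and 8.30% held kappa B, the interferon element and GAS. The 250 bases before the start are shown for C3 (chr17:57228137-57228386, reverse strand), the central component and the gene with the match in capitals, and for Cd55 (chr1:130462745-130462994, reverse strand), its membrane regulator with no match.
C3: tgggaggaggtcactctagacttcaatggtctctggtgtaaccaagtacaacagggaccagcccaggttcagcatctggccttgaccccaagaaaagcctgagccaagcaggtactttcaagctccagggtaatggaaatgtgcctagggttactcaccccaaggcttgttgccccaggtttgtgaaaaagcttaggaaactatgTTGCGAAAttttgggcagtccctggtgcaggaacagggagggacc
Cd55: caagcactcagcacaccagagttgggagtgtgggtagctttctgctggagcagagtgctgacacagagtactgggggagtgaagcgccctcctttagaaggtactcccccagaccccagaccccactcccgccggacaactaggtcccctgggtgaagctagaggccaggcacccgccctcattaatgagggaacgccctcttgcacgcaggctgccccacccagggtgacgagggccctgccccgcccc
A match describes letters and not a bound site, and the absence of a match says nothing about a factor.

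Levels of different genes were compared in TPM, which accounts for length. In the knockout at week 6, Serping1 stood first at 119 ± 23 TPM (SD, n = 3), followed by Cfb at 84.5 ± 6.4, C3 at 57.8 ± 16.6, Cd55 at 52.8 ± 8.5, C4b at 15.2 ± 3.7, C2 at 6.48 ± 1.88, C5ar1 at 3.97 ± 1.08 and C3ar1 at 2.32 ± 0.30. The ranges of C3 and Cd55 overlapped, as did those of C2 and C5ar1; other neighbours in this order did not. At week 10 the order had Cfb at 96.5 ± 39.3 TPM and Serping1 at 88.2 ± 36.9, which overlapped. By mean, C2 at 27.9 ± 15.1 TPM stood above C4b at 11.2 ± 8.1 TPM. Their ranges, 12.7 to 43.0 and 5.02 to 20.3 TPM, overlapped as well.

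Cfi, the protease that inactivates C3b and C4b, was at the edge of detection. Its 2 transcripts together had 35 estimated counts over all 18 libraries, with 0 in 9 libraries and more than 3 in 4. The highest was 9 counts, in week 10 replicate 2, followed by 8 in week 14 replicate 1. Where none was counted, up to 3 counts remain possible from counting error alone, or 0.0886 to 0.113 CPM in those 9 libraries. No difference between groups was detectable for Cfi at this depth.

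**Figure D1:**
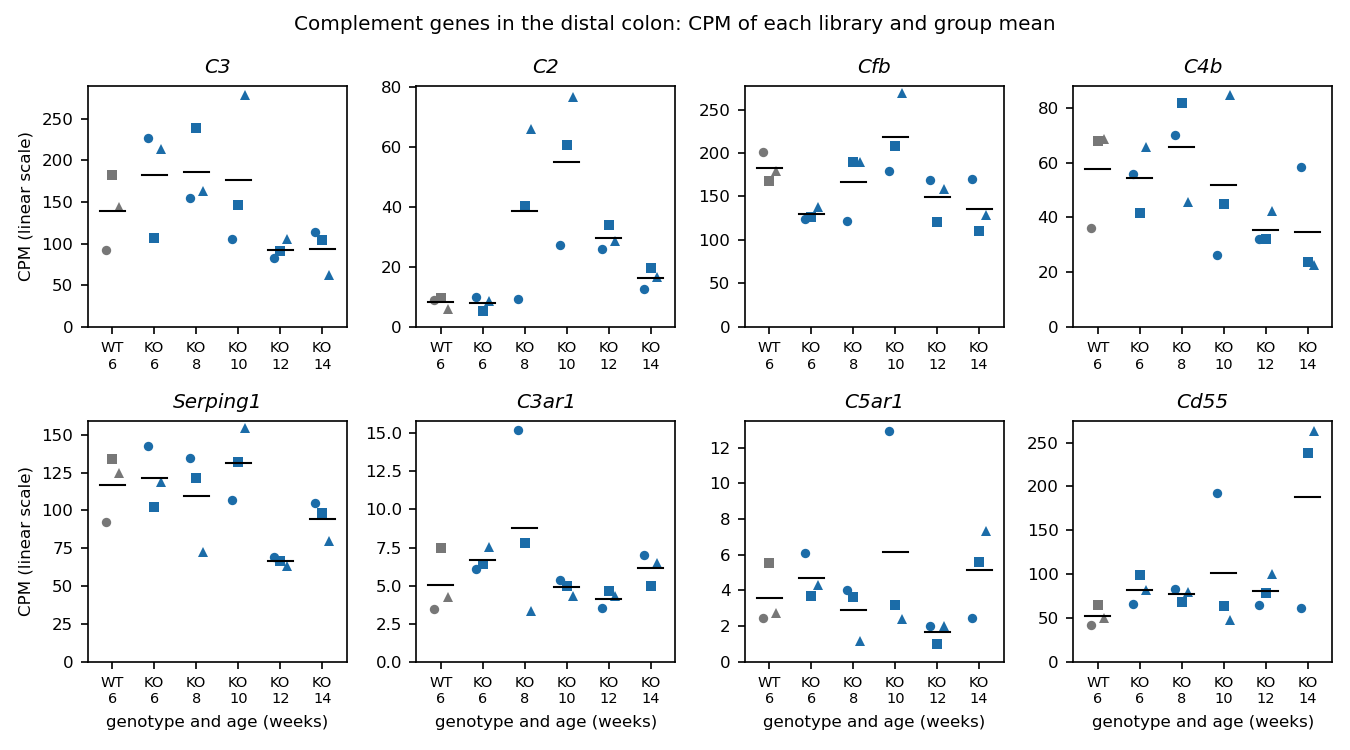
CPM of the 8 measured genes in each library (circle, square and triangle for replicates 1, 2 and 3; grey for wild type, blue for Il10KO) by genotype and age in weeks, on linear axes from 0, with group means as black lines. C2 is above its week 6 range in all libraries of weeks 10, 12 and 14, and Cd55 is highest in week 14 replicates 2 and 3 and week 10 replicate 1.

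Changes between groups are log2 fold changes ± SE from edgeR's quasi-likelihood test, fitted once to all 18 libraries, with Benjamini-Hochberg adjustment over all 16300 genes and a threshold of 0.05; the SE rests on a spread shared by the 6 groups. Levels beside them are CPM scaled by TMM. Under this scaling the median change of all genes lay between -0.06 and 0.03 in every comparison with week 6. On log2(TPM + 1), which has no such scaling, the median of all genes was -0.34 at week 10, -0.36 at week 12 and -0.74 at week 14, and TPM changes below are to be read against these.

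Loss of interleukin 10 at week 6 was compared first. None of the 8 genes was called by edgeR, and neither was any of the 16300 genes (0%). DESeq2 called 0 of the 8 and 0.153% of all genes. At an unadjusted p under 0.05, 394 genes and 1 of the 8 stood out in edgeR. That gene was Cfb, with 201, 167 and 179 CPM in the wild type and 124, 126 and 138 CPM in the knockout. Every knockout library was below every wild-type library, with a log2 change of -0.50 ± 0.23 (unadjusted p = 0.0486, adjusted p = 1, edgeR). Cd55 had 41.6, 64.9 and 49.4 CPM in the wild type and 65.3, 99.5 and 82.3 CPM in the knockout. All 3 knockout libraries were higher, with a log2 change of 0.66 ± 0.50 (adjusted p = 1, edgeR). Among all genes, 12.3% were higher and 13.1% lower without overlap between these groups.

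C2, the serine protease that C4b holds in the classical and lectin C3 convertase, had the largest change of the 8. It had 10.0, 5.34 and 8.52 CPM in the knockout at week 6 and 8.96, 9.61 and 5.96 CPM in the wild type. At week 8 it had 9.29, 40.1 and 66.1 CPM, so replicate 1 was still at the week 6 level and replicates 2 and 3 were above it. Week 10 libraries had 27.4, 60.5 and 76.7 CPM. Those of week 12 had 25.9, 34.1 and 28.6 CPM, and the oldest mice, at week 14, had 12.5, 19.7 and 16.5 CPM. All 9 libraries of weeks 10 to 14 were above all 3 of week 6.

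C2 rose from week 6 to week 10 by 2.79 ± 0.54 on the log2 scale, 6.89-fold (adjusted p = 0.006, edgeR). Cfb, the factor B protease of the alternative pathway convertase and the neighbour of C2 on the chromosome, rose by 0.76 ± 0.23, 1.69-fold (adjusted p = 0.0329, edgeR). Cfb had 124, 126 and 138 CPM in the knockout at week 6 and 180, 208 and 269 CPM at week 10, with no overlap. Its wild-type libraries, at 201, 167 and 179 CPM, overlapped those of week 10. The 2 called genes, C2 and Cfb, were 25% of the 8. Of all genes tested, 24% were called in this comparison, 14.6% higher and 9.48% lower, so the count is near the background. Without overlap, 2 of the 8 were higher (C2 and Cfb) and 1 was lower (C3ar1), where 27.5% and 30.3% of all genes did the same. The rise of C2 was kept under every alternative but the fit with cage as a factor (2.45, adjusted p = 0.106, edgeR), in which 0.0124% of all genes were called. The rise of Cfb was not seen on the TPM scale (0.12, adjusted p = 0.827, limma), lost its call with library size as the only scaling (0.50, adjusted p = 0.25, edgeR) and with cage as a factor (adjusted p = 0.212, edgeR). The call of Cfb was also lost, with the change at 0.58 to 0.81, when any 1 of the 3 libraries of week 6 was removed or with week 10 replicate 2 or 3 left out (adjusted p from 0.0623 to 0.102, edgeR). In those fits 4.7% to 32.1% of all genes were called.

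**Figure D2:**
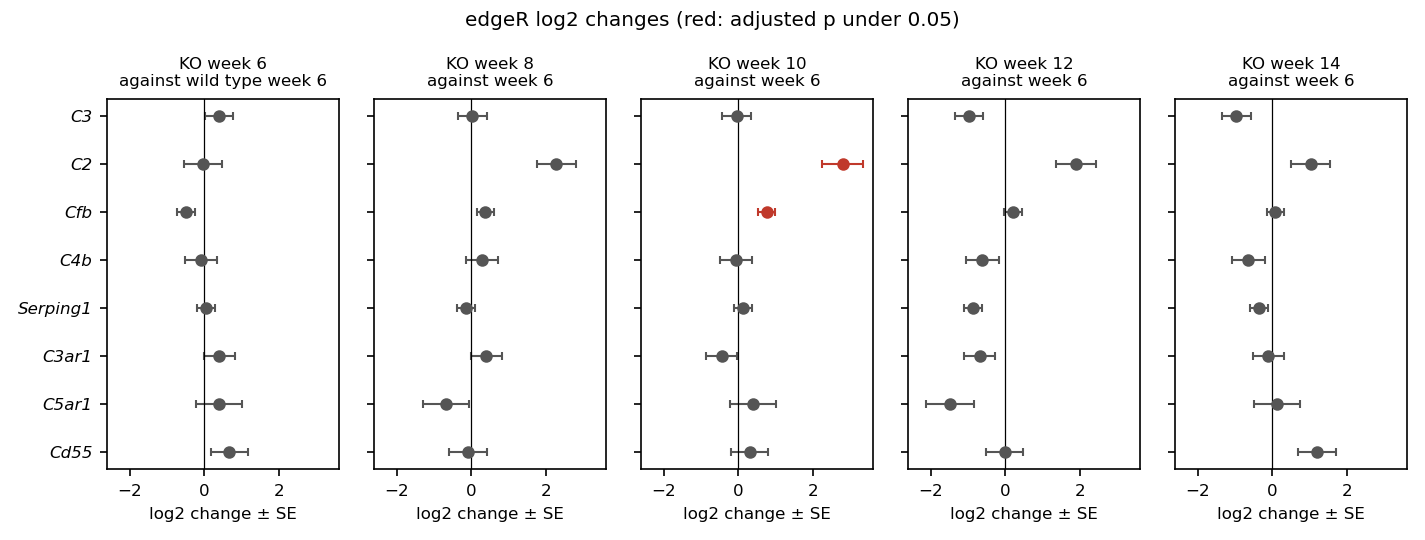
Log2 change ± SE (horizontal axis) of the 8 genes in the 5 comparisons named above the panels, from edgeR on 3 libraries a group; red points have an adjusted p under 0.05. The 2 red points are C2 at 2.79 and Cfb at 0.76, both in week 10 against week 6.

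At the other ages C2 differed from week 6 without being called. Its week 8 change was 2.27 ± 0.53 (adjusted p = 0.133, edgeR), the week 12 change 1.89 ± 0.53 (adjusted p = 0.0718, edgeR) and the week 14 change 1.02 ± 0.52 (adjusted p = 0.115, edgeR). Without week 8 replicate 1 the week 8 change was 2.74 ± 0.40 (adjusted p = 0.00612, edgeR), where 1% of all genes were called. The week 14 difference was not seen in TPM, where C2 stood at 6.54 ± 2.30 TPM against 6.48 ± 1.88 TPM at week 6, while the median of all genes was lower on that scale. In the test across the 5 knockout ages C2 was called (adjusted p = 0.0163, edgeR) with Serping1 (adjusted p = 0.0417, edgeR), that is 2 of 8 against 27.4% of all genes. Leaving out 1 library moved that count to 0 (week 6 replicate 2), to 4 (week 10 replicate 1) and to 6 (week 14 replicate 1). Those fits called 1611, 3975 and 11683 genes. The count was 1 for 10 of the other 12 libraries. Fits without any 1 of those 12 called 1261 to 4706 genes.

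Cfb had 122, 190 and 190 CPM at week 8. Its levels were 169, 121 and 158 CPM in the week 12 libraries, and 170, 110 and 129 CPM in those of week 14. All 3 groups overlapped week 6. Its changes were 0.37 ± 0.23, 0.21 ± 0.23 and 0.07 ± 0.23 (adjusted p = 0.792, 0.512 and 0.799, edgeR). The week 12 and week 14 values turn negative on log2(TPM + 1), at -0.44 and -0.91, the latter a called fall (adjusted p = 0.0489, limma) against a median of -0.74 for all genes.

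C3, the component on which all pathways converge, had 227, 107 and 213 CPM at week 6. Week 8 libraries had 155, 239 and 163 CPM, and week 10 libraries 105, 146 and 279 CPM. These 3 ages overlapped. It then had 82.6, 91.0 and 105 CPM at week 12, all below week 6, and 114, 104 and 62.2 CPM at week 14. The week 12 change was -0.97 ± 0.38 (adjusted p = 0.119, edgeR) and the week 14 change -0.96 ± 0.38 (adjusted p = 0.0609, edgeR). Neither was called. The latter was called when week 6 replicate 2 was removed (-1.24, adjusted p = 0.0442, edgeR), where 2781 of 16321 genes were called. It was also called when week 14 replicate 1 was removed (-1.14, adjusted p = 0.0258, edgeR), where 11335 of 16321 genes were called. The 3 week 14 libraries enter the estimate of the shared spread. With them left out, the week 12 value was -1.04 ± 0.37 and called (adjusted p = 0.0386, edgeR). In that fit 41.3% of all genes were called, and why the call changed was not tested.

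C4b, which with C2 forms the classical convertase, had 55.9, 41.7 and 65.8 CPM at week 6 and 70.0, 81.7 and 45.8 CPM at week 8. Week 10 libraries had 26.1, 45.0 and 84.9 CPM. Week 12 libraries had 32.1, 32.1 and 42.4 CPM, and week 14 libraries 58.3, 23.7 and 22.6 CPM. Every later group overlapped week 6. Its changes were 0.27 ± 0.43, -0.07 ± 0.43, -0.62 ± 0.43 and -0.64 ± 0.43 in that order of age, and none was called by edgeR. Without week 14 replicate 1 the last was -1.24 ± 0.41 (adjusted p = 0.0149, edgeR), where 69.5% of all genes were called.

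Serping1 encodes C1 inhibitor, the serpin that blocks the classical and lectin proteases. Its week 6 libraries had 142, 102 and 119 CPM, its week 8 libraries 135, 121 and 72.7 CPM, and its week 10 libraries 107, 132 and 155 CPM. At week 12 it had 69.3, 66.4 and 63.4 CPM, below every library of weeks 6, 8 and 10, and by week 14 the libraries had 105, 98.2 and 80.0 CPM. The change was -0.87 ± 0.24 from week 6 to week 12 (adjusted p = 0.0719, edgeR) and -0.98 ± 0.24 from week 10 to week 12 (adjusted p = 0.0829, edgeR). Neither passed the threshold. Without the 3 week 14 libraries both were called, at -0.93 ± 0.24 (adjusted p = 0.00955, edgeR; 41.3% of all genes called) and -0.99 ± 0.24 (adjusted p = 0.0279, edgeR; 6.78% of all genes called).

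Between week 10 and week 12 all 8 genes had a negative log2 change, with a median of -0.72 against -0.01 over all genes. Of 31 other complement genes tested, taken from the role lists below, 17 had a positive change, and their median over the 31 was 0.19. None of the 8 was called by edgeR, against 0.448% of all genes. The 8 were listed with earlier results of these data known and share libraries, so their signs are not separate evidence. The 4 with an unadjusted p under 0.05 were C3, Cfb, Serping1 and C5ar1. DESeq2 called 1 of the 8, Serping1, and 5.04% of all genes. Week 10 serves both as the end of the earlier comparison and as the reference here, so the 2 comparisons share its libraries. Against week 6, week 12 libraries were lower without overlap for 4 of the 8 (C3, Serping1, C3ar1 and C5ar1) and higher without overlap for 1 (C2), where 32.9% and 32.8% of all genes did the same. None of the 8 was called by edgeR at week 12, against 1.85% of all genes, and 4 had an unadjusted p under 0.05. None was called at week 8 (0.0675% of all genes; 1 of the 8 with an unadjusted p under 0.05) or at week 14 (33.1% of all genes; 2 of the 8). Without overlap, 1 of the 8 was higher at week 14 (C2) and none lower, against 19.2% and 21.5% of all genes, while at week 8 none was higher or lower, against 11.1% and 12.8%.

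Other tools moved these counts along with the background. DESeq2 called 1 of the 8 genes at week 8 (1.38% of all genes), 2 at week 10 (36.5%), 2 at week 12 (15.4%), 2 at week 14 (46.9%) and 4 across the ages (50.4%). On log2(TPM + 1), limma called 1 at week 10 (19.9%), 0 at week 12 (4.07%), 0 between weeks 10 and 12 (0.337%), and 4 at week 14 (60%), the last being falls of C3, Cfb, C4b and Serping1.

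C3ar1, the receptor for C3a, was among the lowest of the genes. Week 6 libraries had 6.06, 6.42 and 7.55 CPM, week 8 libraries 15.2, 7.79 and 3.33 CPM, and week 10 libraries 5.34, 4.98 and 4.34 CPM. The later libraries had 3.50, 4.62 and 4.30 CPM (week 12) and 7.01, 4.99 and 6.49 CPM (week 14). Week 8 had the widest spread, from below to above week 6, and weeks 10 and 12 lay below week 6. The changes at those ages were -0.45 ± 0.41 and -0.69 ± 0.42 (adjusted p = 0.399 and 0.236, edgeR).

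C5ar1, the receptor for C5a on neutrophils and macrophages, had 6.12, 3.67 and 4.29 CPM at week 6 and 3.997, 3.63 and 1.15 CPM in the week 8 libraries. At week 10 replicate 1 had 12.9 CPM and the other libraries 3.17 and 2.41 CPM. Week 12 libraries had 1.98, 1.02 and 2.01 CPM, all below week 6. Week 14 libraries had 2.48, 5.62 and 7.32 CPM. The week 12 change was -1.49 ± 0.64 (adjusted p = 0.134, edgeR), and the change from week 10 to week 12 was -1.88 ± 0.65 (adjusted p = 0.188, edgeR). Its week 10 value of 0.39 ± 0.62 turns to -0.75 without replicate 1 and to -0.41 on log2(TPM + 1). Week 10 replicate 1 was also the library with the highest summed neutrophil markers of that age, 6220 CPM against 1310 and 1170 CPM; their part in the C5ar1 level was not tested.

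Cd55 encodes decay-accelerating factor, which disassembles C3 convertases on cell membranes. Week 6 libraries had 65.3, 99.5 and 82.3 CPM, week 8 libraries 83.3, 68.5 and 79.6 CPM, and week 12 libraries 64.1, 78.5 and 101 CPM. Replicates 1 to 3 had 193, 63.4 and 47.9 CPM in week 10 mice, and 60.9, 238 and 264 CPM in week 14 mice. The 3 highest libraries were week 10 replicate 1 and week 14 replicates 2 and 3, the same 3 in which S100a8 and S100a9 took at least 0.422% of counts; the part of neutrophil or RNA quality differences in the Cd55 level was not tested. The week 14 change was 1.19 ± 0.50 (adjusted p = 0.0724, edgeR) and turned to -0.27 on log2(TPM + 1). Without the 2 libraries of low RIN, which hold the high Cd55 values, week 14 is replicate 1 alone and the value was -0.44, in a fit that called 0% of all genes at that age. Without week 14 replicate 1 it was 1.61 ± 0.42 and called (adjusted p = 0.00307, edgeR; 69.5% of all genes called). Its paralog Cd55b has similar sequence, so reads may be shared between them.

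Transcript estimates added a shift within Cd55. A retained-intron transcript of 8 exons (ENSMUST00000140725.7) made up 12.9 ± 1.5% of the gene's estimated counts in the wild type (SD, n = 3). In the knockout the share was 13.3 ± 2.7% at week 6 and 15.3 ± 3.5% in the week 8 group. The week 10 share was 6.14 ± 1.17% and the week 12 share 5.40 ± 0.96%, with all 6 libraries below the lowest of weeks 6 and 8. In the oldest group the share ran from 0.968% to 11.0%. The coding transcript of 10 exons (ENSMUST00000027650.12) took 83.3 ± 2.3% at week 6 and 90.1 ± 0.7% at week 10. For C2 the longest coding transcript (ENSMUST00000025230.14) took 92.5 ± 6.1% at week 6 and 48.7% to 92.5% at week 10, and a shorter one (ENSMUST00000152417.7) 6.48% to 48.3% at week 10. These shares are kallisto's division of reads among overlapping transcripts and were not tested.

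Ratios of 2 genes within a library do not depend on the scaling of that library. The TPM ratio of C2 to C4b, the convertase partners, was 0.491, 0.381 and 0.398 at week 6 and 0.593, 0.411 and 0.293 in the wild type. Week 8 libraries had 0.313, 1.17 and 3.48, and week 10 libraries 2.54, 3.41 and 2.11. Week 12 libraries had 1.77, 2.29 and 1.73, and week 14 libraries 0.606, 1.71 and 1.72. All libraries of weeks 10, 12 and 14 were above all of week 6. The C4b side of this ratio may include reads of C4a. Relative to week 6 the ratio was 6.26-fold higher at week 10, 4.55-fold in week 12 mice and 2.88-fold in week 14 mice, from means of log2 ratios.

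C2 also stood higher relative to Serping1, with a ratio of 0.0540 ± 0.0089 at week 6 (SD, n = 3). The week 10 ratio was 0.305 ± 0.074 and the week 12 ratio 0.359 ± 0.066. The ratio of Cfb to Serping1 was 0.730 ± 0.145 in the knockout at week 6. It was 1.10 ± 0.07, 1.47 ± 0.22 and 1.23 ± 0.28 in the groups of weeks 10, 12 and 14, again without overlap with knockout week 6. In the wild type this ratio was 0.990 ± 0.282, from 0.778 to 1.31, which overlapped each of these later groups. Over the 3 ratios and 6 comparisons, 18 two-sided exact permutation tests were made. Each difference without overlap had an exact permutation p = 0.1, the smallest that 3 libraries against 3 allow, and an adjusted p of 0.18.

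**Figure D3:**
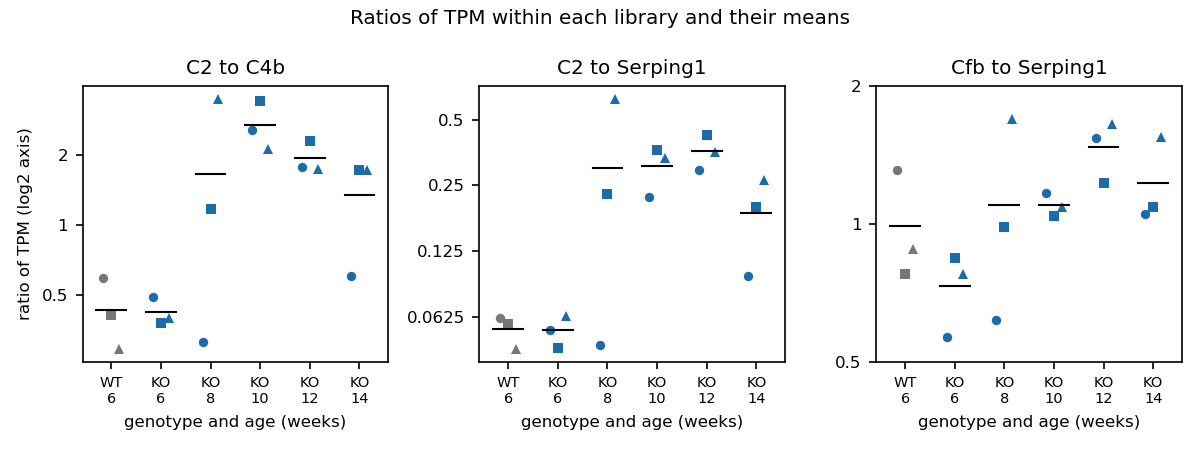
TPM ratios of gene pairs in each library (symbols as in the plot of CPM by library) by genotype and age in weeks, on log2 axes, with group means as lines. The ratio of C2 to C4b lies between 2.11 and 3.41 at week 10 and between 0.381 and 0.491 at Il10KO week 6.

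The wider pathway was read from 52 complement genes in 6 role lists, of which 39 were tested; the lists include these members. At week 10, 3 of the 39 rose and 2 fell in edgeR, against 14.6% and 9.48% of all genes, and the median change over the 39 was -0.05 against 0.01 over all genes. The riser besides C2 and Cfb was C6, and the genes that fell were Susd4 and Masp1. C6, a subunit of the membrane attack complex, had 10, 0 and 9 counts at week 6 and 76, 52 and 41 counts at week 10, a log2 change of 3.30 ± 1.10 (adjusted p = 0.0411, edgeR). Susd4, a membrane regulator of complement, had 87, 44 and 45 counts at week 6 and 7, 19 and 18 counts at week 10. It fell by 1.89 ± 0.53 on the log2 scale (adjusted p = 0.0234, edgeR). Masp1, a protease of the lectin pathway, had 132, 74 and 62 counts at week 6 and 9, 11 and 46 counts at week 10. It fell by 1.96 ± 0.65 (adjusted p = 0.0414, edgeR). Without week 6 replicate 1 or without week 10 replicate 1, the calls of C6, Susd4 and Masp1 were lost (adjusted p from 0.0934 to 0.155, edgeR), and C6 and Masp1 lost theirs without week 6 replicate 2 or 3 or week 10 replicate 2 as well (adjusted p from 0.069 to 0.124, edgeR). In those fits 4.7% to 11.2% of all genes were called. The count of 5 called among the 39 became 1 to 5 as single libraries of either group were left out, in fits that called 767 to 5242 genes. C6 and Masp1 also lost their calls with the replicate number as a block (adjusted p = 0.0528 each, edgeR). With library size as the only scaling they lost them as well (adjusted p = 0.0629 and 0.0666, edgeR), where 2310 of 16300 genes were called. Of 20 alternatives, 12 kept the call of C6, 12 that of Masp1 and 17 that of Susd4. With cage as a factor none of these 3 genes was called (adjusted p from 0.274 to 0.287, edgeR).

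By role at week 10, 1 of 12 tested genes of classical and lectin initiation rose (C2) and 1 fell (Masp1). Of the other roles, 1 of 4 genes of the alternative pathway with C3 rose (Cfb) and 1 of 3 of the terminal pathway (C6). Of 8 membrane regulators 1 fell (Susd4), and none of 4 fluid-phase regulators and none of 8 receptors was called by edgeR. C5 itself (Hc) had no row in the gene tables and 0 to 7 estimated counts a library.

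**Figure D4:**
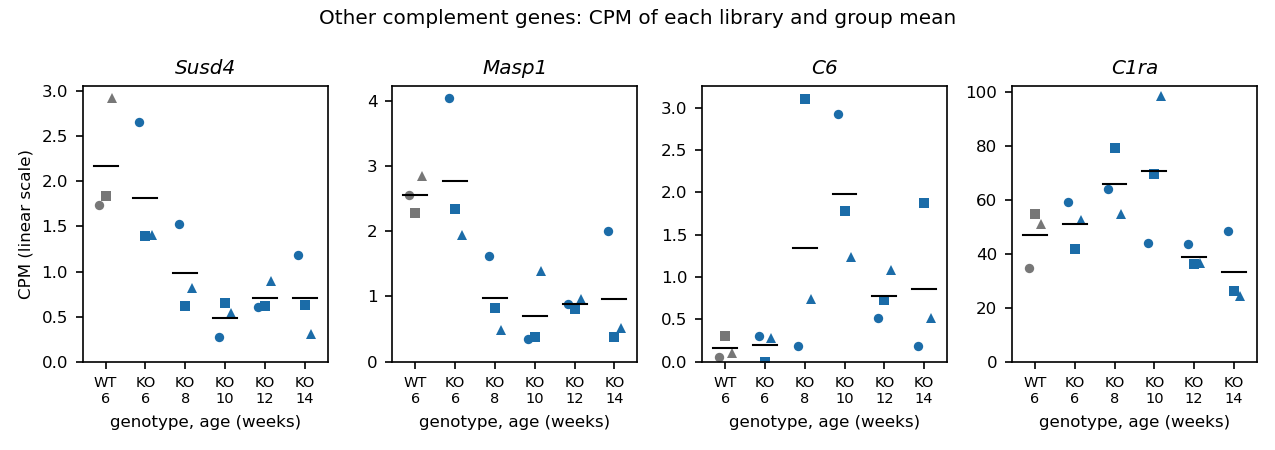
CPM of Susd4, Masp1, C6 and C1ra in each library (symbols as in the plot of CPM by library) by genotype and age in weeks, on linear axes from 0, with group means as lines. All 3 libraries of week 10 are above those of Il10KO week 6 for C6 and below them for Susd4 and Masp1.

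At week 12, 1 of the 39 genes was called, against 1.36% of all genes called higher. It was Cd46, a membrane cofactor for factor I, which is named here after its value was seen. It had 29, 34 and 19 counts at week 6 and 119, 136 and 85 counts at week 12, and it rose by 2.11 ± 0.49 (adjusted p = 0.0442, edgeR). With any single library of either group left out the change was 1.84 to 2.31 and not called (adjusted p from 0.0717 to 0.187, edgeR). Those fits called 0% to 0.319% of all genes. The call was also lost with library size alone (adjusted p = 0.0757, edgeR). With cage as a factor it was lost too (adjusted p = 0.276, edgeR). On log2(TPM + 1) the change was 0.38 and not called (adjusted p = 0.117, limma). Of 20 alternatives in all, 9 kept the call of Cd46 and 11 lost it. At week 14, 4 of the 39 were called, all higher, where 24.5% of all genes were called higher and 8.56% lower. They were Colec10, a lectin pathway collectin, at 1.21 ± 0.38, C4bp, which binds C4b, at 1.20 ± 0.30, Cr1l, a membrane regulator of C3 convertases, at 0.81 ± 0.25, and Vsig4, a macrophage receptor for C3b, at 3.14 ± 1.07 (adjusted p from 0.00921 to 0.0349, edgeR). The sign of Colec10, C4bp and Cr1l turned on log2(TPM + 1), to -0.07, -0.29 and -0.57, the last a called fall (adjusted p = 0.0343, limma). Vsig4 had 1, 0 and 7 counts at week 6 and 8, 17 and 21 counts in the week 14 libraries, and its change ran from 2.58 to 5.30 as single libraries were left out. Colec10 and Cr1l lost their calls without any 1 of the 6 libraries other than week 14 replicate 1 (adjusted p from 0.055 to 0.158, edgeR). The Vsig4 call was lost without week 6 replicate 1 or 2 or week 14 replicate 2 or 3 (adjusted p from 0.0989 to 0.118, edgeR), and that of C4bp without week 14 replicate 3 (adjusted p = 0.0543, edgeR). The count of 4 became 20 without week 14 replicate 1, where 69.5% of all genes were called, and 0 to 2 without any other single library of these groups, where 11.5% to 17% were called. All 4 calls were lost with cage as a factor (adjusted p from 0.271 to 0.283, edgeR; 0% of all genes called) and with library size as the only scaling (adjusted p from 0.082 to 0.428, edgeR; 11.9% of all genes called). They were lost with RIN as a covariate too, at 0.63, 0.44, 0.14 and 1.56 for Colec10, C4bp, Cr1l and Vsig4. The adjusted p there ran from 0.959 to 0.961 (edgeR), and 0% of all genes were called. Without the libraries of low RIN, which leaves 1 library at week 14, the changes were 0.45, 0.43, -6e-04 and 1.30. With only the compared groups Colec10, C4bp and Cr1l lost their calls (adjusted p from 0.13 to 0.192, edgeR), where 0% of all genes were called. Across the 5 ages 8 of the 39 were called, against 27.4% of all genes: C2, Serping1, C1ra, Colec10, C4bp, Cd46, Cr1l and Vsig4. C1ra, a protease of the C1 complex, is named and plotted after its values were seen. The count of 8 ran from 1 to 21 as single libraries were left out, with 21 without week 14 replicate 1. Those fits called 1261 to 11683 genes, the highest number without that same library.

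Markers of other cells moved over the same ages. The 12 fibroblast and matrix markers summed to 2960 to 4470 CPM at week 6, 996 to 1740 CPM at week 10 and 922 to 1070 CPM at week 12; 8 of 12 fell at week 10 and 3 at week 12 in edgeR, where 9.48% and 0.491% of all genes fell, and all 12 were detected. At week 14 these 12 summed to 1220 to 2150 CPM. The 8 endothelial markers summed to 152 to 171 CPM at week 6 and 57.0 to 69.9 CPM at week 12. Of these 8, 3 fell at week 10 and none at week 12 in edgeR, against 9.48% and 0.491% of all genes. Serping1, C3 and C4b were lowest at weeks 12 and 14 by group mean of CPM. Their log2 changes at week 10 were 0.11 ± 0.24, -0.05 ± 0.38 and -0.07 ± 0.43. The part of fibroblast, matrix and endothelial markers in the levels of these 3 genes was not tested. The 12 epithelial markers summed to 13500 to 16100 CPM at week 6 and 13600 to 17600 CPM at week 10, and these ranges overlapped. The 9 macrophage markers summed to 428 to 579 CPM at week 6, and to 1900, 1600 and 477 CPM at week 10. Lyz2 alone had 362 to 1792 CPM at week 10. Of the 9, 7 had a negative change, with a median of -0.74; Fcgr1 rose, and Mertk and Cd163 fell, in edgeR. At week 10, 7 of 8 neutrophil markers and 4 of 7 T cell markers rose, where 14.6% of all genes rose. The part of epithelial, macrophage, neutrophil or T cell content in the C2 level was not tested.

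**Figure D5:**
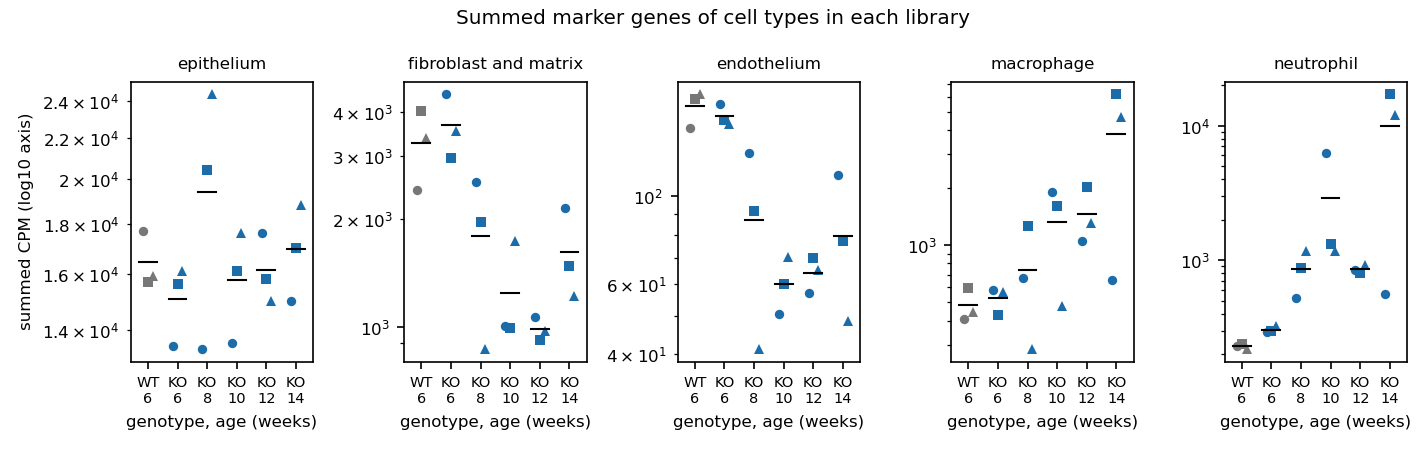
Summed CPM of the marker genes of 5 cell types in each library (symbols as in the plot of CPM by library) by genotype and age in weeks, on log10 axes, with group means as lines. Fibroblast and matrix markers are at 996 to 1740 CPM at week 10 against 2960 to 4470 CPM at Il10KO week 6, while epithelial markers overlap between those ages.

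The genes most like each member were taken as the 3 with the highest Pearson r of log2 CPM over the 18 libraries, among 12394 genes. These correlations describe libraries that share groups, depth and cell makeup, and carry no test. C2 was most like Tap1 (0.95), Gbp2 (0.95) and Ciita (0.95), genes known to respond to interferon gamma. C3 was most like C1ra (0.86), P4ha1 (0.83) and Rassf4 (0.77), and Serping1 most like Spon1 (0.84), Olfml2b (0.83) and Arsi (0.80). C3ar1 was most like Tlr7 (0.85) and the macrophage genes Adgre1 (0.80) and Cd68 (0.80). Cfb had Mrps5 (0.90), Micall2 (0.87) and Atad3a (0.85), C4b had Kcnj10 (0.87), Csf1 (0.86) and Wdfy4 (0.86), C5ar1 had Lpl (0.87), Gpx3 (0.85) and Sgpp1 (0.83), and Cd55 had Tmem263 (0.93), S100a11 (0.93) and Ublcp1 (0.93). Among the members themselves, the most alike were C3 with C4b (0.85) and C3 with Serping1 (0.72), ahead of C2 with Cfb (0.50). C3 had lower r with Cfb (0.35) and C2 (0.15), and C4b had 0.39 with Cfb and -0.08 with C2, so the profiles of C3 and C4b across libraries were more like that of the regulator Serping1 than those of C2 or Cfb.

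Lipocalin, a marker of gut inflammation given in the labels in ng/g, was compared with the genes within age. The slope on log10 lipocalin, fitted in edgeR to the 15 knockout libraries with age as a factor, called none of the 8 genes and 0% of 16182 genes; 117 genes had an unadjusted p under 0.05. Of the 8, only C5ar1 did, with a log2 change of 2.46 ± 0.99 per 10-fold lipocalin (unadjusted p = 0.0279, adjusted p = 0.888, edgeR). The other slopes ran from -0.69 ± 0.82 for C4b to 0.93 ± 0.98 for Cd55.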

How the data were processed

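RNA of distal colon biopsies was sequenced as polyadenylated RNA with paired reads, per the labels' protocols. The authors quantified transcripts with kallisto on mm10 after FastQC, per the submitters' processing notes; versions, annotation release and use of strand are not given in the sources used here. The deposited gene table holds expected counts, which are whole numbers there, and a second deposited table holds TPM for the same genes. The deposited transcript tables give estimated counts and TPM per transcript, per the file headers, and were used for Cfi, Il10, transcript shares and listed genes without a gene row. Positions come from GENCODE vM21.

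Counts were scaled by TMM and tested in edgeR 4.0.16 (R 4.3.3) with 6 group means after filterByExpr; log2 CPM used a prior count of 2. P values are two-sided. The SE is the unshrunk change divided by the square root of F. Each edgeR p-value sets a change against the spread between labelled replicates, estimated over all groups in the fit. Ratios were tested in SciPy 1.17.1. Members are always named; other listed genes were named if called at week 10 or 14, and Cd46 and C1ra after their values were seen. The members and lists were chosen with earlier results of these data known. Alternatives were DESeq2 1.42.0, limma 3.58.1 on log2 TPM (pseudocount 1 or 0.1), RLE scaling, library size alone, other filters, RIN, cage, a replicate block, subsets of groups and leaving out libraries. Leaving out the 3 week 14 libraries was chosen after seeing the data. On simulated counts with known changes, only the week 10 against week 6 comparison was tried, in edgeR, DESeq2 and limma. The other steps were not simulated. No pair of libraries was identical. A further listed gene is not reported here and was left out of the lists' counts.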

Additional observations from a re-analysis of the deposited data

How the results depend on the processing

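Each group holds 3 mice, the spread is shared with week 14 libraries that differ among themselves, and the receptors rest on 28 to 480 counts a library. Of the 8 genes, the number called at week 8 was 1 with DESeq2 and with RIN as a covariate. Those fits called 225 and 193 of 16300 genes. At week 10 it was 1 on log2 TPM under all 3 settings, where 2021 to 3250 genes were called. It was 1 with library size alone (2310 of 16300 genes called) and 0 with cage as a factor (2 of 16182). At week 12 it was 2 with DESeq2 (2507 of 16300 genes called) and 3 with RIN as a covariate (5751 of 16300). It was 3 without the week 14 libraries (6688 of 16176 genes called). With only the compared groups it was 6, where 59% of all genes were called. At week 14 it was 2 with DESeq2 (7644 of 16300 genes called). It was 4 on log2 TPM under all 3 settings, where 9778 to 10067 genes were called. From week 10 to week 12 it was 1 with DESeq2 (821 of 16300 genes called) and with RIN (1030 of 16300). Without the week 14 libraries it was also 1 (1096 of 16176 genes called). Across ages it was 4 with DESeq2 (8216 of 16300 genes called), 1 with library size alone (1451) and 1 with a replicate block (3407). It was 0 with cage (0 of 16182 genes called) and 1 with only the 15 knockout libraries (2133 of 16182). Leaving out 1 library gave 0 to 1 called at week 8 (0 to 164 genes called) and 1 to 2 at week 10 (767 to 5242). It gave 0 to 3 at week 14, with 3 without week 14 replicate 1 (11335 of 16321 genes called). Across ages it gave 0 to 6, with 6 without week 14 replicate 1, where 71.6% of all genes were called. The cause of these changes was not tested. No count changed for the knockout against wild type or the lipocalin slope, where it stayed at 0 in all alternatives run.

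Replicate numbers did not pair the samples: deviations of same-numbered libraries correlated at -0.246 to 0.237. With the replicate block the rise of C2 at week 10 was 2.65 (adjusted p = 0.00994, edgeR). That of Cfb was 0.75 (adjusted p = 0.0455, edgeR). In the same fit C6 and Masp1 lost their week 10 calls (adjusted p = 0.0528 each, edgeR). Across ages 1 of the 8 was called in place of 2, where 3407 of 16300 genes were called.

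The sign of some changes turned. On log2(TPM + 1), with or without a filter, and then on log2(TPM + 0.1), they turned at week 6 against wild type for C2 (0.0402, 0.0416) and C4b (0.0176, 0.0213), and at week 8 for C3 (-0.0823, -0.0829). At week 10 they turned for Serping1 (-0.49, -0.49), C5ar1 (-0.41, -0.57) and Cd55 (-0.50, -0.52), and at week 12 for Cfb (-0.44, -0.45). At week 14 they turned for Cfb (-0.91, -0.93), C5ar1 (-1.04, -1.45), Cd55 (-0.27, -0.28), Colec10 (-0.0695, -0.14), C4bp (-0.29, -0.36) and Cr1l (-0.57, -0.58), and for C2 only at the smaller pseudocount (-7e-04). With library size alone they turned for C3 at week 8 (-0.0372), Serping1 (-0.15) and Cd55 (-0.0133) at week 10, and Cfb (-0.37) and C5ar1 (-0.55) at week 14. With cage they turned for Serping1 at week 8 (0.23), C4b (0.016) and Cd55 (-0.14) at week 10, and C3ar1 (0.0394) and C5ar1 (-0.32) at week 14. At week 14 they turned with RIN for C3ar1 (0.0259), C5ar1 (-0.95) and Cd55 (-0.25), and without the libraries of low RIN, which leaves 1 library at that age, for C4b (0.0939), C3ar1 (0.0671), C5ar1 (-0.93), Cd55 (-0.44) and Cr1l (-6e-04). Leaving out 1 library gave ranges across 0 at week 6 against wild type for C2 (-0.24 to 0.18), C4b (-0.33 to 0.0779) and Serping1 (-0.0923 to 0.16). At week 8 it did so for C3 (-0.25 to 0.22), Serping1 (-0.32 to 0.0792), C3ar1 (-0.26 to 0.79) and Cd55 (-0.24 to 0.0638). At week 10 it did so for C3 (-0.54 to 0.22), C4b (-0.61 to 0.25), Serping1 (-0.0251 to 0.24), C5ar1 (-0.75 to 0.78) and Cd55 (-0.57 to 0.64), and at week 12 for Cd55 (-0.20 to 0.13). At week 14 it did so for Cfb (-0.12 to 0.21), C3ar1 (-0.22 to 0.0163) and C5ar1 (-0.23 to 0.46), and from week 10 to week 12 for Cd55 (-0.66 to 0.54). The cause was not tested.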
